A study of Xiphophorus multilineatus with 4 samples.

Results

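Reads of fast skeletal muscle genes were found in the brains of adult male *Xiphophorus multilineatus*, and the values of 7 such transcripts in each brain are described here. They are 4 troponin transcripts (tnnt3a, tnnc2 and a pair named tnni2a.4) and 3 myosin transcripts (myl1, mylpfa and MYH13), which stand for 6 genes among the 18872 transcripts of the count table. The 7 were picked by name from the study's list of 131 transcripts that differ between the juvenile environments in these same brains (2-fold or more, unadjusted p of 0.01 or less). Their difference between the environments was therefore used to choose them. It is given below as a description and carries no test.

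The study reared males in a high quality juvenile environment (HQJE) or a low quality juvenile environment (LQJE) and sequenced RNA from 4 whole brains, each as a library of its own. HQJE males (fish 15 and 11) lived alone once they were older than 14 days and had Tetramin flakes and brine shrimp without limit. LQJE males (fish 17 and 18) grew up in group tanks with more than 6 fish per liter and received Tetramin once daily. All 4 were laboratory-reared F2 males of the Y-II size class, bred from females caught in the wild, and all spent 5 weeks as adults on the high quality adult diet of Spirulina flakes, brine shrimp and bloodworms. Their ages at dissection are not given in the sources used here. As adults on this diet, males of both groups were kept singly. Between the juvenile environments housing and food differed together, so their parts cannot be told apart. In whole-brain RNA, fewer cells of a type and less RNA per cell cannot be told apart either.

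Muscle fibers contract when myosin of the thick filament pulls on actin of the thin filament. The troponin complex on the thin filament is the calcium switch: troponin C binds calcium, troponin I holds contraction back at rest, and troponin T ties the complex to tropomyosin. A myosin molecule consists of heavy chains, which are the motor, with an essential and a regulatory light chain on each neck. These proteins have forms of fast fibers that differ from those of slow or cardiac muscle. The genes studied here are named for fast forms, with MYH13 named for a heavy chain of eye muscles. Fast fibers are a cell type that brain tissue itself does not contain.

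The counts summed to between 14260762 and 25531496 per brain, and every pair of brains differed by more than sampling noise (chi-square over its degrees of freedom of 14.9 to 29.7), so none is the same library counted again. LQJE fish 17, the shallowest library, stood apart. Over 15087 transcripts that averaged at least 1 CPM (counts per 1000000, with library sizes scaled by the TMM method of edgeR), the log2 CPM of fish 17 correlated at 0.967 to 0.970 with the other brains, which correlated at 0.983 to 0.986 with each other. Transcripts are no independent replicates of each other, so these correlations were not tested. Values without fish 17 are therefore given as well. The names used here pair none of the 188 brain, muscle, heart, blood and skin genes set out for comparison with a transcript, so the tissue of the libraries was not checked against markers, and other genes of the contractile machinery were not analysed here.

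All 7 transcripts were lower in HQJE than in LQJE brains. Summed over the 7, expression was 11.96 CPM in HQJE fish 15 and 8.18 CPM in HQJE fish 11. In LQJE fish 17 and 18 the sum was 33.0 and 28.0 CPM. The groups did not overlap, with a mean of 10.1 ± 2.68 CPM for HQJE and 30.5 ± 3.54 CPM for LQJE (SD, n = 2 each). These are rare reads, 455 and 702 counts in the LQJE brains and 263 and 181 counts in the HQJE brains. The 7 transcripts together took 1 of every 31342 and 36370 counts in LQJE fish 17 and 18, and 1 of every 82511 and 117798 counts in HQJE fish 15 and 11. The sum adds both tnni2a.4 transcripts, which can share reads, and whether each such read was counted once is not known. Exact 95% intervals for counting error alone ran from 7.03 to 13.5 CPM over both HQJE brains and from 25.9 to 36.2 CPM over both LQJE brains. Without molecular identifiers, reads cannot be taken as independent molecules, so all intervals given here cover counting error only.

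**Figure D1:**
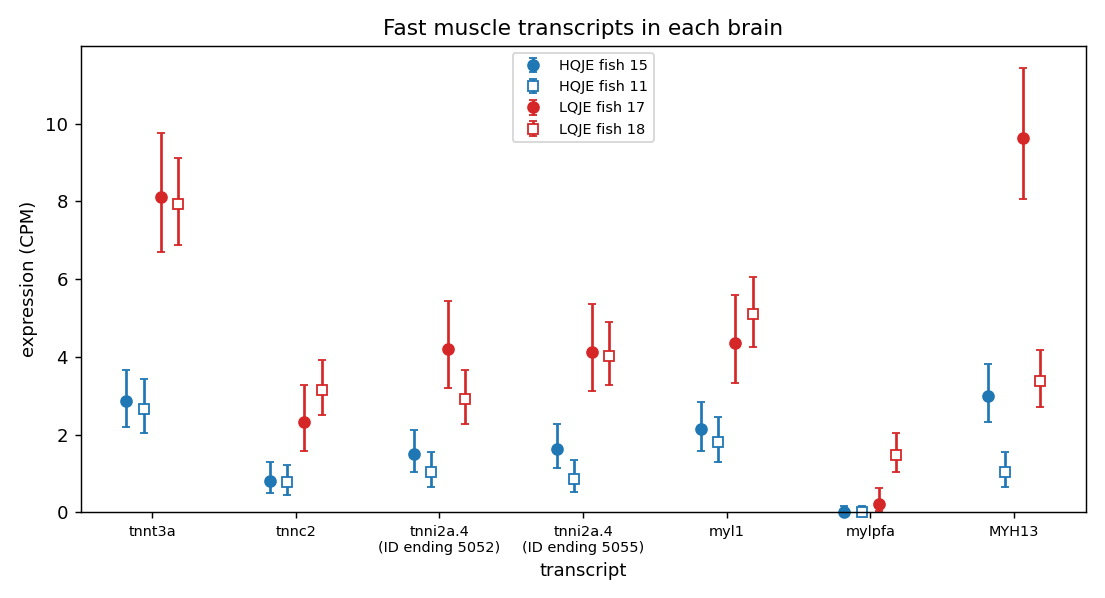
Expression of the 7 fast muscle transcripts (x axis) in CPM (y axis) in each of the 4 brains, with 1 point per brain and bars for the exact 95% counting interval. Both LQJE brains (red) lie above both HQJE brains (blue) for each transcript, closely for MYH13 (3.39 against 3.002 CPM) and from 0.217 CPM against 0 for mylpfa.

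Of the troponins, tnnt3a (ENSXMAT00000007482), which encodes fast skeletal troponin T, was the best read with 433 counts. It had 63 and 59 counts in HQJE fish 15 and 11 and 112 and 199 counts in LQJE fish 17 and 18. Scaled for depth, this was 2.87 and 2.67 CPM in the HQJE pair, against 8.12 and 7.93 CPM in the LQJE brains. Brains of a group were nearly alike and the groups lay far apart, with each LQJE brain between 2.77 and 3.05 times each HQJE brain. The p limit of the study's list favors transcripts whose brains agree within a group, so this closeness was selected as well. The difference between environments, as log2 of HQJE over LQJE with its standard error (SE), amounted to -1.53 (SE 0.223). It lay between -1.59 and -1.48 with any brain left out.

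The transcript of tnnc2 (ENSXMAT00000016636), the calcium-binding subunit, was read 18 and 17 times in HQJE fish 15 and 11 and 32 and 79 times in LQJE fish 17 and 18. Its expression was 0.819 and 0.768 CPM in the HQJE pair, against 2.32 and 3.15 CPM in the LQJE brains. The groups did not overlap, and LQJE fish 18 was the highest brain. The log2 fold change was -1.79 (SE 0.376). Leaving out LQJE fish 17 gave -1.98, and leaving out LQJE fish 18 gave -1.51.

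Both tnni2a.4 transcripts carry the name of fast skeletal troponin I, the inhibitory subunit, as tandem duplicate 4. They can share reads, and the treatment of multiply matching reads was not given in the sources used here. Counts of each are thus uncertain. The first (ENSXMAT00000005052) had 1.501 and 1.04 CPM in HQJE fish 15 and 11 and 4.20 and 2.91 CPM in LQJE fish 17 and 18. The second (ENSXMAT00000005055) had 1.64 and 0.859 CPM in the HQJE pair, against 4.13 and 4.02 CPM in the LQJE brains. For both transcripts HQJE fish 11 was the lowest brain and LQJE fish 17 the highest. Their log2 fold changes were -1.47 (SE 0.383) and -1.70 (SE 0.402). Leaving out single brains moved the first between -1.76 and -1.19 and the second between -2.24 and -1.31. Summed over the 2 transcripts, expression was 3.14 and 1.90 CPM in the HQJE pair, against 8.34 and 6.93 CPM in the LQJE brains. This sum does not depend on how shared reads were divided only if each was counted once, which is not known. The count ratio of the first to the second was 0.917 and 1.21 in HQJE fish 15 and 11 and 1.02 in LQJE fish 17, all with intervals that include 1. In LQJE fish 18 the ratio was 0.723 (exact 95% interval 0.527 to 0.986).

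Of the myosins, myl1 (ENSXMAT00000016228), the essential light chain of fast fibers, had 47 and 40 counts in HQJE fish 15 and 11 and 60 and 128 counts in LQJE fish 17 and 18. This was 2.14 and 1.81 CPM in the HQJE pair, against 4.35 and 5.10 CPM in the LQJE brains. The groups did not overlap, and the lowest LQJE brain was at 2.03 times the highest HQJE brain. The log2 fold change was -1.26 (SE 0.289), the smallest in size of the 7. With single brains left out its range was -1.39 to -1.11.

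The transcript of mylpfa (ENSXMAT00000008025), the regulatory light chain of fast fibers, was not read in either HQJE brain. LQJE fish 18 had 37 counts and LQJE fish 17 had 3, which is 1.47 and 0.217 CPM. Most of its reads thus came from a single brain. With 0 counts the exact 95% interval reached up to 0.168 CPM in HQJE fish 15 and 0.167 CPM in HQJE fish 11, and that of the 3 counts of fish 17 ran from 0.0448 to 0.636 CPM. The 40 counts of the LQJE group came to 15.1 times a floor of 3 counts set for the HQJE group as a whole. For counting error of the pooled reads alone, the exact 95% interval of the LQJE over HQJE ratio had a lower limit of 11.7. This limit rests mostly on the 37 counts of LQJE fish 18 and does not cover the spread between brains. It is therefore no bound for the LQJE group. The depth of fish 17 does not separate that brain from the HQJE brains. The fitted fold change of a transcript with no count in a group depends on the prior count and is not given.

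MYH13 (ENSXMAT00000004199) is named after the human gene of a myosin heavy chain of eye muscles. It had 66 and 23 counts in HQJE fish 15 and 11 and 133 and 85 counts in LQJE fish 17 and 18. This was 3.002 and 1.04 CPM in the HQJE pair, against 9.64 and 3.39 CPM in the LQJE brains. The highest HQJE brain and the lowest LQJE brain nearly met, at a ratio of 1.13, whereas the extreme pair, LQJE fish 17 over HQJE fish 11, differed 9.28-fold. Group means were 2.02 ± 1.39 CPM for HQJE and 6.51 ± 4.42 CPM for LQJE (SD, n = 2 each). The log2 fold change of -1.67 (SE 0.680) shrank to -0.75 when LQJE fish 17 was left out and to -1.10 when HQJE fish 11 was. It was -2.22 if LQJE fish 18 and -2.63 if HQJE fish 15 was left out. Myosin heavy chains form a large gene family whose members can share reads, so this count is uncertain as well.

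**Figure D2:**
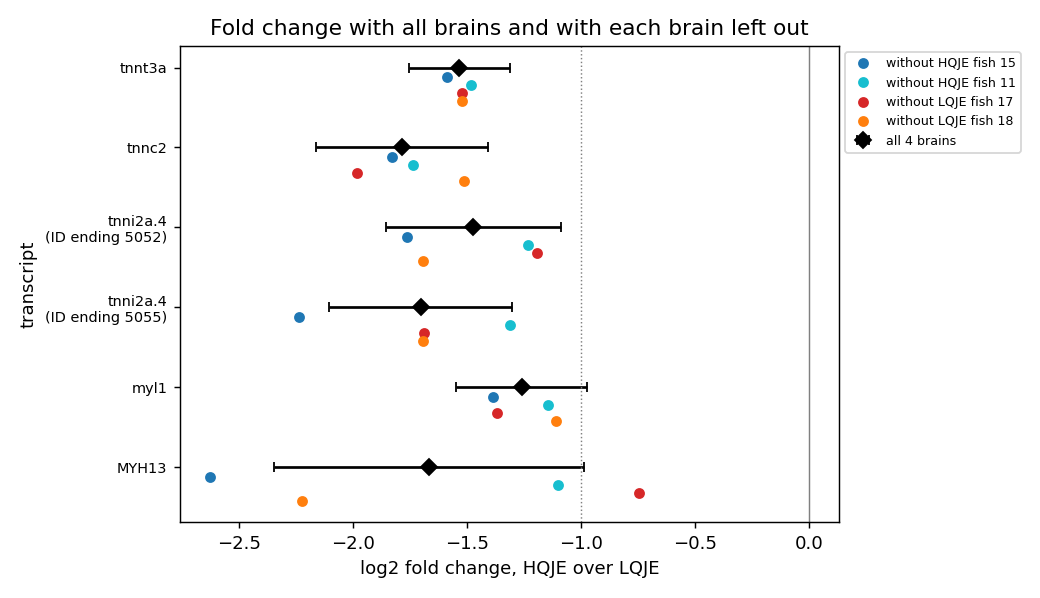
Log2 fold change of HQJE over LQJE (x axis) for the 6 transcripts with counts in every brain (y axis), as a black diamond with its standard error for all 4 brains and as colored points with each brain left out. The points of tnnt3a stay between -1.59 and -1.48, those of MYH13 spread from -2.63 to -0.75, and the dotted line marks a log2 fold change of -1.

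The median log2 fold change over the 7 transcripts was -1.67, against -0.02 over the 18474 transcripts with a count in at least 1 brain. Setting mylpfa to the 15.1-fold of its pooled LQJE counts over the floor could not change this median, since mylpfa stayed the lowest of the 7. All 7 had both HQJE brains below both LQJE brains, as did 21.1% of all transcripts tested. At the threshold of the study, edgeR's quasi-likelihood test called 5 of the 7, against 0.141% of all transcripts called lower in HQJE. They were tnnt3a, tnnc2, both tnni2a.4 transcripts and myl1. The edgeR exact test called all 7, against 0.455%. The members were chosen by this very contrast, so nothing can be read from these counts. No transcript reached an adjusted p of 0.05 in the quasi-likelihood test with Benjamini-Hochberg adjustment (1403 had an unadjusted p under 0.05), and the adjusted p of the 7 was 0.622 to 0.641 in edgeR's quasi-likelihood test. Fits with a brain left out keep 1 brain in a group, so only their effect sizes are described here for the members. The median log2 fold change of the 7 was -1.52 without LQJE fish 17 and -1.69 without LQJE fish 18. It was -1.83 without HQJE fish 15 and -1.31 without HQJE fish 11. By edgeR's exact test the member nearest to the limit of the list was myl1 (p = 0.00760). The transcript just outside, ENSXMAT00000005523 (p = 0.0102 in edgeR's exact test), has no name in the sources used here and was read 27 times in LQJE fish 18 and at most 1 time elsewhere.

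Brains reared alike differed in these transcripts as well. Of 13 ratios between brains of a group, 8 had an exact 95% counting interval that included 1. This was so for tnnt3a, tnnc2 and myl1 in both groups. Since the p limit of the study's list favors such closeness, nothing can be read from how many intervals included 1. The ratios outside counting error in both groups were those of MYH13, where LQJE fish 17 was at 2.85 times fish 18 (interval 2.15 to 3.78) and HQJE fish 15 was at 2.89 times fish 11 (interval 1.77 to 4.87). The ratio farthest from 1 was that of mylpfa, where LQJE fish 17 was at 0.148 times fish 18 (interval 0.0291 to 0.466). The remaining ratios outside counting error were those of a tnni2a.4 transcript in each group, 1.91 for ENSXMAT00000005055 in HQJE fish 15 over fish 11 and 1.45 for ENSXMAT00000005052 in LQJE fish 17 over fish 18. The median absolute log2 difference between the LQJE brains was 0.43 over the 7 transcripts and 0.22 over all tested, and between the HQJE brains it was 0.23 and 0.19. These sets were not matched for counts, and counting error enters each median. Whether the 7 vary more between brains than transcripts with like counts was not tested.

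The mix of fast muscle reads within a brain can be compared without any scaling for depth, as the count of each transcript over the count of tnnt3a in that brain. Transcript lengths are not used in these ratios, so they can be compared between brains but not between genes. For tnnc2 the ratio was 0.286 and 0.288 in HQJE fish 15 and 11 and 0.286 and 0.397 in LQJE fish 17 and 18. For myl1 it was 0.746 and 0.678 in the HQJE pair, against 0.536 and 0.643 in the LQJE brains. For tnni2a.4 ENSXMAT00000005052 it was 0.524 and 0.390 in the HQJE pair, against 0.518 and 0.367 in the LQJE brains. For ENSXMAT00000005055 it was 0.571 and 0.322 in the HQJE pair, against 0.509 and 0.508 in the LQJE brains. The intervals of all 4 brains overlapped for each of these transcripts, although the level of myl1 itself ranged from 1.81 to 5.10 CPM. These transcripts and tnnt3a alike were chosen for a difference between the groups, and all were lower in HQJE. A shared difference cancels in the ratio, so like ratios in both groups follow largely from how the transcripts were chosen. Overlap of such wide intervals also does not show an equal mix. The ratio of ENSXMAT00000005052 to tnnt3a was higher in fish 15 and 17 than in fish 11 and 18, within overlapping intervals. MYH13 also had its higher ratios in fish 15 and 17, but its intervals did not all overlap. Its ratio was 1.05 in HQJE fish 15 and 1.19 in LQJE fish 17, but 0.390 in HQJE fish 11 and 0.427 in LQJE fish 18. The brains with a high MYH13 share thus came from both environments, and the intervals of fish 15 and 17 (0.730 to 1.504 and 0.917 to 1.54) lay above those of fish 11 and 18 (0.230 to 0.641 and 0.327 to 0.553). For mylpfa the ratio was 0.186 in LQJE fish 18 (interval 0.127 to 0.265) and at most 0.0268 in the other brains.

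**Figure D3:**
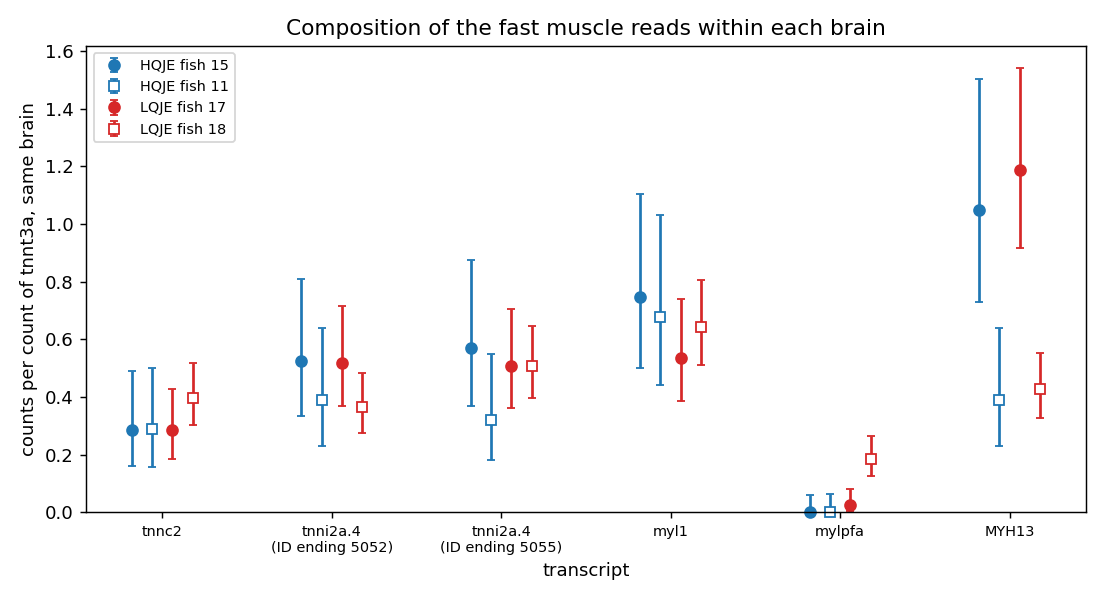
Counts of each transcript per count of tnnt3a in the same brain (y axis) for 6 transcripts (x axis), with 1 point per brain and bars for the exact 95% counting interval. MYH13 is near 1 in HQJE fish 15 and LQJE fish 17 (circles) and near 0.4 in HQJE fish 11 and LQJE fish 18 (squares). For tnnc2 and myl1 the intervals of all brains overlap, which follows largely from how the transcripts were chosen.

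Transcripts outside the 7 were ranked by how close their profile over the 4 brains came to the mean profile of the 7. The measure was the root mean square difference of log2 CPM (prior count of 2), centered on the mean of each transcript. Among 15081 other transcripts that averaged at least 1 CPM, the nearest was ACSBG1 (ENSXMAT00000003162), an enzyme that activates fatty acids, at 0.0750. It had 4.73 and 3.43 CPM in HQJE fish 15 and 11 and 12.8 and 12.4 CPM in LQJE fish 17 and 18. Next came pvalb1 (ENSXMAT00000014707) at 0.220, a calcium-binding parvalbumin, with 6.09 and 6.33 CPM in the HQJE pair, against 18.1 and 17.4 CPM in the LQJE brains. They were followed by irf1b, an interferon regulatory factor, at 0.246, and, after a pair of transcripts without a name, by zgc:63489, a gene matched to human ZBTB7B, at 0.306 and by gig2j at 0.329. The 7 members themselves lay between 0.154 and 0.273 from their mean, except MYH13 at 0.670 and mylpfa at 0.980. Names were available only for transcripts on the study's list, which was drawn from the same contrast, so these neighbors are a description over 4 brains. Whether the fast muscle reads came from cells of the brain or from muscle tissue taken with it at dissection was not tested.

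**Figure D4:**
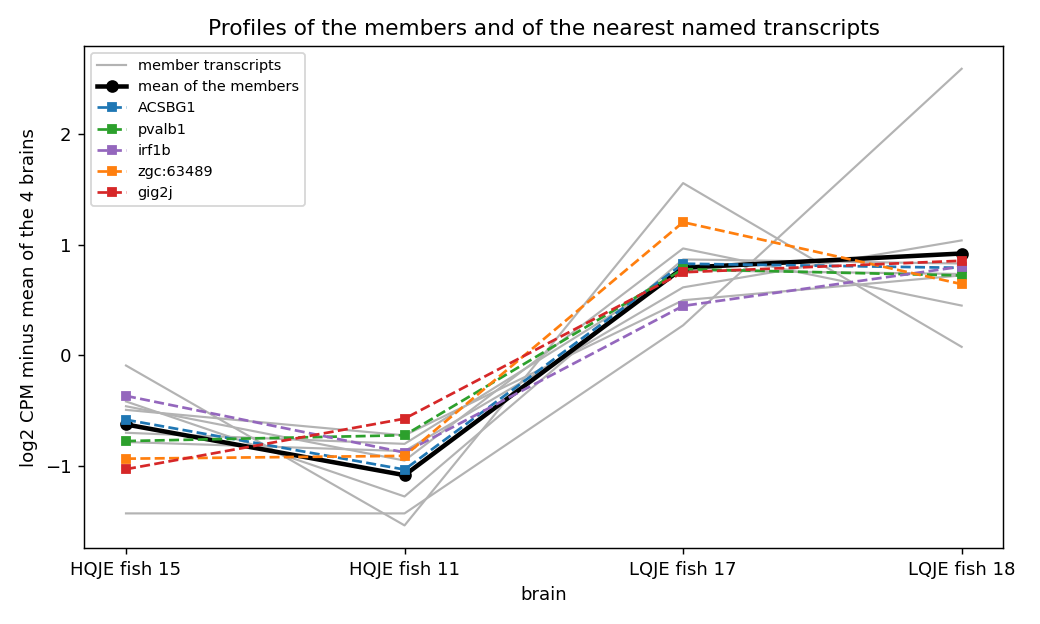
Log2 CPM minus the mean of the 4 brains (y axis) in each brain (x axis) for the 7 members (grey), their mean (black) and the 5 nearest named transcripts (dashed). Lines only join the points of a transcript. ACSBG1 runs closest to the mean of the members (root mean square difference 0.0750). Every transcript drawn is lower in both HQJE brains than in both LQJE brains, which follows largely from how members and neighbors were chosen.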

How the data were processed

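Read processing was done by the authors: quality trimming and filtering, Bowtie2 alignment to 18872 *X. multilineatus* transcripts matched to *X. maculatus*, and counting per transcript by custom scripts. The deposited values are raw counts. The treatment of read pairs, strand and multiply matching reads was not given in the sources used here. Group labels came from the sample titles, which spell the groups with letters exchanged. Gene names and human matches came from the study's list of differing transcripts, and its fold changes and p-values were not used.

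Transcripts without a count (398) were left out. The remaining 18474 were fitted with edgeR 4.0.16 (R 4.3.3, limma 3.58.1) using TMM scaling and the quasi-likelihood test, with Benjamini-Hochberg adjustment over all of them. Standard errors were derived from the test, as the size of the log2 fold change over the root of its F statistic. CPM used TMM-scaled library sizes. Intervals are exact Poisson intervals and, for ratios of counts, conditional binomial intervals. A p-value of the quasi-likelihood test weighs the group difference against a variance moderated across all transcripts. That variance rests on only 2 brains per group.

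Alternatives were the edgeR exact test (tagwise dispersions), its likelihood ratio test, the filterByExpr filter, size factors from DESeq2, unscaled library sizes, the Wald test of DESeq2 1.42.0, and each brain left out, where a lone brain is assumed to vary like the other group. The text names all 7 members and the 5 nearest named transcripts averaging at least 1 CPM. The members and lists were chosen with earlier results of these data known. The comparison of the 188 listed genes was not run, since their names are paired with no transcript.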

Additional observations from a re-analysis of the deposited data

How the results depend on the processing

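The log2 fold changes of the 7 transcripts and their median kept their negative sign in all 79 values from the alternatives, and 75 of these moved by less than 1 SD between brains. Both tallies were largely fixed in advance. All 7 had both HQJE brains below both LQJE brains, so leaving a brain out could hardly turn a sign. The other alternatives refit the same counts. That SD is built from the same differences between brains of a group that set such shifts. The tallies are thus no support for the difference. The number of members past the threshold was between 4 and 7 with other tests, scalings and filters, and between 1 and 3 with a brain left out. The 7 came from the edgeR exact test. The members were chosen by this same contrast between environments, so nothing can be read from how many passed. Fits with a brain left out keep 1 brain in a group, so nothing can be read from their calls either. Over all transcripts, 35 were called (26 lower and 9 higher in HQJE). The exact test called 133 (84 lower, 49 higher), the likelihood ratio test 121 (68 lower, 53 higher) and DESeq2 53 (35 lower, 18 higher). With no limit on the fold change, 35, 42 and 79 transcripts reached an adjusted p up to 0.05 in these tests, in that order. Without TMM scaling 40 were called, 21 lower and 19 higher. With DESeq2 size factors 43 were called, 30 lower and 13 higher. With a brain left out between 56 and 348 were called, 16 to 314 lower and 28 to 40 higher, and 0 to 1 reached an adjusted p of 0.05. The cause of these shifts was not tested. With filterByExpr mylpfa was not tested, since it did not pass the filter. No paired analysis was possible because the fish numbers in the labels are not shared between the groups. With 40 counts for mylpfa and at most 433 for any member, depth limits each value.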

Other observations

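The study's list also names smyd1a (ENSXMAT00000010755), a methyltransferase that muscle fibers need to assemble myosin. It ran the other way from the contractile genes, with 54 and 381 counts in HQJE fish 15 and 11 and 21 and 36 counts in LQJE fish 17 and 18. Expression was 2.46 and 17.2 CPM in the HQJE brains and 1.52 and 1.43 CPM in the LQJE brains, so that most of its reads came from fish 11, the brain with the lowest sum of fast muscle reads. With a log2 fold change of 2.73 (SE 0.897) it was not called by the quasi-likelihood test of edgeR. Other genes of that list with a link to muscle had values in both directions. Among them pvalb1, whose values per brain are given above, was called lower in HQJE with a log2 fold change of -1.51 (SE 0.154). Parvalbumin pvalb4, which buffers calcium, had 0.364 and 1.31 CPM in HQJE fish 15 and 11, against 6.23 and 7.81 CPM in LQJE fish 17 and 18, and was called lower in HQJE with a log2 fold change of -3.06 (SE 0.569). The sodium pump subunit atp1a1a.5 was called higher in HQJE with 1.32 (SE 0.253). Neither anxa1c, an annexin, at -2.04 (SE 0.946) nor the calcium channel cacna1ha at -2.71 (SE 1.18) was called, and the highest brain was LQJE fish 18 for anxa1c (27.9 CPM, at most 5.55 CPM elsewhere) and LQJE fish 17 for cacna1ha (4.93 CPM, at most 0.409 CPM elsewhere). These genes were chosen after their values were seen.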
